A study of Homo sapiens with 18 samples.

Results

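The E2F factors and the pocket proteins are the transcription factors and co-repressors that gate entry into S phase. The genes described are the 10 whose symbol in the deposited tables is E2F1, E2F2, E2F3, E2F4, E2F5, E2F7, E2F8, RB1, RBL1 or RBL2. All 10 were present in the inhibitor table of 21391 features and in the siRNA table of 18350 features, 22027 features in all, and all 10 passed the filter of a mean value of at least 1 in each table. The rule uses gene symbols and no measured value.

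RNA was sequenced from LNCaP, a line of human prostate cancer cells that respond to androgen. The cells, grown in RPMI 1640 with 10% FBS, were exposed for 24 h to DMSO as vehicle, or to olaparib, veliparib or UPF1069 at 10 uM each. In a separate experiment they were harvested 72 h after transfection with siNC, a control siRNA, or with siPARP1_A, siPARP1_B, siPARP2_A or siPARP2_B, a pair of siRNAs against each of PARP1 and PARP2. These 9 groups held 2 libraries per group, 18 in all, which the series calls biological duplicates, and all come from 1 cell line with no allele introduced. Olaparib and veliparib are inhibitors of PARP1 and PARP2, the enzymes that attach ADP-ribose chains to proteins at DNA breaks, and UPF1069 is sold as an inhibitor of PARP2.

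E2F1, E2F2 and E2F3 are the activator E2Fs, which bind DNA with a DP partner and switch on the genes of DNA synthesis. RB1 encodes the retinoblastoma protein, which holds the activators silent until cyclin D and cyclin E kinases phosphorylate it. RBL1 (p107) and RBL2 (p130) are its relatives, and they pair mainly with E2F4 and E2F5 and, with the MuvB core, form the DREAM complex that represses cell cycle genes in resting cells. E2F7 and E2F8 are atypical E2Fs that need neither a DP partner nor a pocket protein and repress E2F targets, and several E2F genes are themselves targets of E2F.

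The promoter windows of 4 members that fell with olaparib and with siPARP2_B are given first, because they differ in whether they hold an E2F word. RefSeq windows on GRCh38.p14 run from 250 bases before to 50 bases after a start site. No window was listed for E2F8, and E2F5 was left out of this search. The other 8 of the 10 members had 10 windows in all. Each was searched on both strands for the words TTTCCCGC, TTTCGCGC, TTTGCCGC and TTTGGCGC, which do not overlap the other words searched, and capitals mark a match, written as it reads on the gene's strand. Shown 5′ to 3′ are E2F1 (chr20:33686336-33686635, minus strand), E2F2 (chr1:23531184-23531483, minus strand) and RBL1 (chr20:37095948-37096247, minus strand), which hold such words, and E2F7 (chr12:77065520-77065819, minus strand), which holds none.
E2F1: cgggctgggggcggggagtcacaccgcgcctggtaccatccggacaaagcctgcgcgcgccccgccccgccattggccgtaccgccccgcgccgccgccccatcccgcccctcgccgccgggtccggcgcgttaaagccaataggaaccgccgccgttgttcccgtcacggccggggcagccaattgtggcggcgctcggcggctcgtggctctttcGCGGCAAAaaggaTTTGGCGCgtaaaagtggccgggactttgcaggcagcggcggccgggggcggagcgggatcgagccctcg
E2F2: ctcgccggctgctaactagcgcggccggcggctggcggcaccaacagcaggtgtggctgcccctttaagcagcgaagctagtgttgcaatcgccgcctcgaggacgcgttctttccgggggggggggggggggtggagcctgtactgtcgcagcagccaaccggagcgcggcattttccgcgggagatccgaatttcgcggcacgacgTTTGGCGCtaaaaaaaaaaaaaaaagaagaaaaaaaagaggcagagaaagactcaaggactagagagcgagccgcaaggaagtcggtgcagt
RBL1: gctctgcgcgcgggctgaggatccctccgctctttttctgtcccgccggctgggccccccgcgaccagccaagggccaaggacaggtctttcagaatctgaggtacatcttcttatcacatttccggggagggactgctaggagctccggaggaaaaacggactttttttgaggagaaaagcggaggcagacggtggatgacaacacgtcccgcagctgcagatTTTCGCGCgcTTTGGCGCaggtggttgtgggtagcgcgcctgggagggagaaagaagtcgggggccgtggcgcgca
E2F7: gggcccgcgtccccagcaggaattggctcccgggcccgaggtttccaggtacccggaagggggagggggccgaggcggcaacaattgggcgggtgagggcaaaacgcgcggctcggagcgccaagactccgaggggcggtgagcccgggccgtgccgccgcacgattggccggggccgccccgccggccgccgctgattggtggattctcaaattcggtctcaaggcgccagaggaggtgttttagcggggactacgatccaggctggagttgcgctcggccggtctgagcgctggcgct

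E2F1 held 2 words, which began at positions -33 and -20 from the start site, and RBL1 held 2, at -26 and -16. E2F2 held 1, at -42, and the first of the 2 E2F3 windows held 1, at -53. None of the 4 words was in the second E2F3 window or in those of E2F4, E2F7 and RBL2. The window listed for RB1, with a GC content of 38.3% against 53.0 to 77.3% in the others, is not described further. Over all 35116 windows of this length, 3.31% held at least 1 of the words. CCAAT was found 3 times in the E2F1 window and 4 times in each of the first E2F3 window and the E2F7 window, and 34.6% of all windows held it. The tables give no coordinates, and the build named in the submitters' processing notes is hg19, so these windows describe the genes and not measured sites.

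The inhibitor libraries held 26.4 to 35.7 M reads and the siRNA libraries 15.5 to 18.6 M, so that 3 reads correspond to 0.0841 to 0.113 counts per M (CPM) and to 0.169 to 0.207 normalised reads per M. All 10 markers of luminal prostate epithelium and LNCaP were at 1 or more in every library, while the immune markers summed to at most 0.313 and the basal markers to at most 0.929. Over the libraries of both tables the stromal markers summed to 1.38 to 14.9, the endothelial marker measured, VWF, read 0.967 to 11.3 and the neuroendocrine marker measured, SYP, read 0.875 to 3.86. PARP1 read 451.7 and 479.1 normalised reads per M with siNC, 4.78 and 5.67 with siPARP1_A, and 8.99 and 9.05 with siPARP1_B. PARP2 read 28.96 and 25.84 with siNC, 3.06 and 2.56 with siPARP2_A, and 1.78 and 1.01 with siPARP2_B. The siPARP2_B libraries also stood low in PARP1, at 160.5 and 144.8, whereas siPARP2_A read 409.1 and 394.6. Fold changes compare log2(value + 1) between groups, so those of genes with few reads come out too small. A gene is said to rise or fall where limma's Benjamini-Hochberg adjusted p over all genes of the table was below 0.05. In these bulk libraries, fewer cells that carry a transcript and less of it per cell cannot be told apart.

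In the control libraries the members spanned a wide range of levels. Per kb of exon, DMSO cells held most E2F1, at 40.8 ± 0.159 CPM per kb (SD, n = 2), followed by E2F4 at 16.5 ± 0.221, RBL2 at 14.9 ± 0.324, RB1 at 9.10 ± 0.0698 and E2F3 at 7.41 ± 0.0102. RBL1 stood at 4.39 ± 0.00253 CPM per kb, E2F7 at 2.72 ± 0.207, E2F2 at 2.41 ± 0.119, E2F5 at 2.12 ± 0.102 and E2F8 at 2.06 ± 0.215. Only E2F5 and E2F8, as neighbours in that order, overlapped in their libraries. With siNC at 72 h the order began with RBL2 at 27.9 ± 0.739 normalised reads per M per kb, then E2F1 at 16.5 ± 1.43, RB1 at 13.6 ± 1.18 and E2F4 at 9.04 ± 0.166, and it ended with E2F2 at 0.949 ± 0.131. No neighbours overlapped there. The 2 tables were normalised apart, so levels were ranked within a table and not compared between them.

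Olaparib lowered most of the family, while UPF1069 and veliparib moved fewer members and by smaller amounts. With olaparib 9 of 10 members changed, 8 down and 1 up, in a comparison where 52.5% of the 13337 genes tested changed and 26.8% fell, and the median log2 fold change of the members was -0.37 against 0.00 for all genes. The rise, of RBL2, stands against 25.8% of all genes that rose. E2F2, E2F7, E2F8 and E2F1 had the largest falls of the 10. With UPF1069 3 of 10 members changed against 24.3% of all genes, a share near the background. E2F7 and RBL2 rose, where 10.3% of all genes did, and E2F8 fell, where 14.0% did. With veliparib 6 of 10 changed against 40.4% of all genes: 3 rose, against 17.2% of all genes, and 3 fell, against 23.2%. The 3 comparisons share the DMSO libraries.

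**Figure D1:**
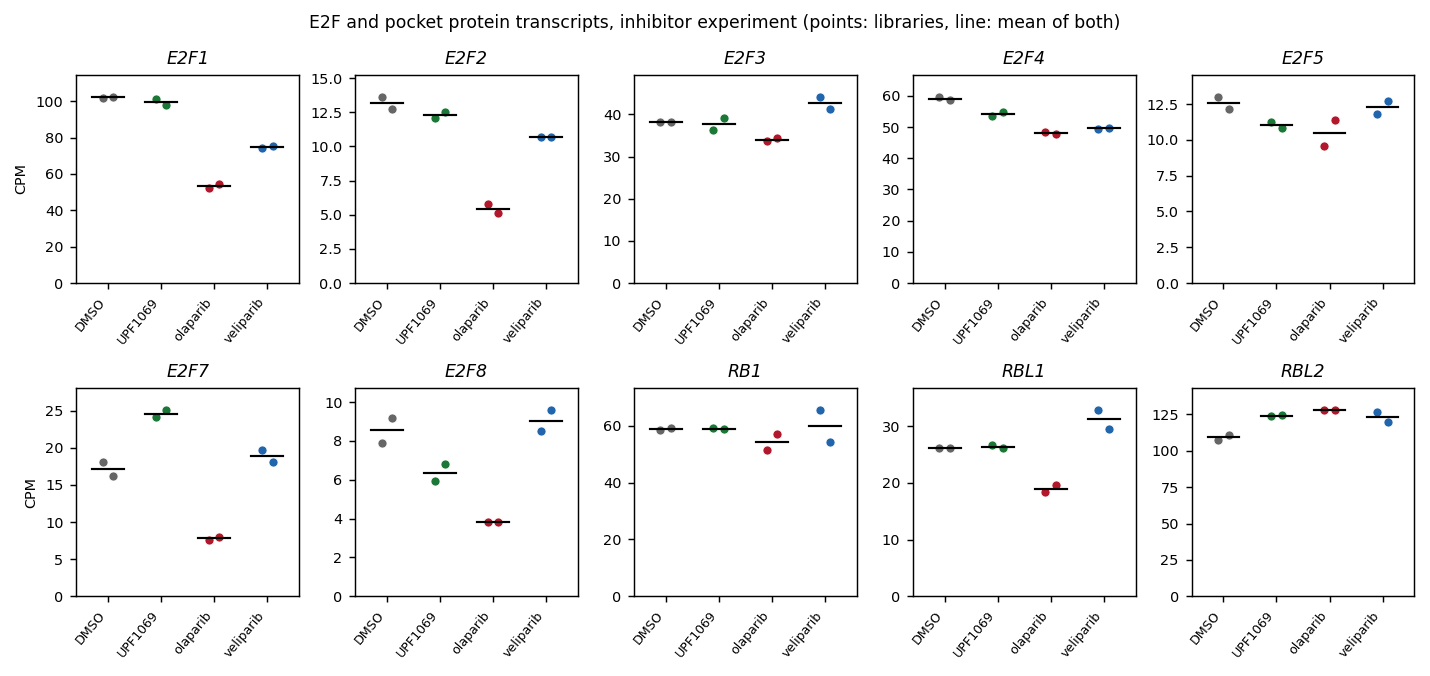
Level of each of the 10 transcripts in the inhibitor experiment, in CPM on a vertical axis that starts at 0; points are libraries and lines the mean of the 2 libraries of DMSO, UPF1069, olaparib and veliparib. E2F1, E2F2, E2F7 and E2F8 are lowest with olaparib, and E2F7 is highest with UPF1069 at 24.1 and 25.1 CPM.

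The fold changes with veliparib followed the GC content of the genes. Over 13075 genes they had a Spearman rho of -0.69 with the GC content of each gene's longest transcript. The rho was 0.11 for UPF1069 and -0.12 for olaparib, as a description across genes that are not independent. The members that fell with veliparib, E2F1, E2F4 and E2F2, have such GC contents of 62.5, 59.3 and 57.5%. Those that rose, E2F3, RBL2 and RBL1, have 45.2, 43.2 and 40.0%. After a GC correction 2 of the 10 members were called, E2F1 at -0.16 (adjusted p = 0.0023) and RBL2 at 0.09 (adjusted p = 0.0477). The sum of 4 structural RNAs was 121 to 124 CPM with DMSO, 180 to 233 CPM with UPF1069, 131 to 253 CPM with olaparib and 775 to 842 CPM with veliparib. Of these 4 RNAs 3 rose with UPF1069 and all 4 with olaparib and with veliparib, and their part in the changes of the members was not tested.

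Among the activators, E2F1 and E2F2 fell with olaparib and, less, with veliparib. E2F1 read 101.8 and 102.4 CPM with DMSO, 101.0 and 98.0 CPM with UPF1069, 52.4 and 54.4 CPM with olaparib, and 74.4 and 75.1 CPM with veliparib. The olaparib and veliparib libraries lay below every DMSO library, and the olaparib libraries lay below the veliparib libraries. The log2 fold change was -0.92 with olaparib (95% interval -1.01 to -0.83, adjusted p = 4.94e-14), which leaves 52.3% of the DMSO level. With veliparib it was -0.44 (adjusted p = 4.7e-08), and -0.16 after the GC correction. With UPF1069 it was -0.04, with an interval of -0.13 to 0.05.

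E2F2, the scarcest activator, read 13.6 and 12.7 CPM with DMSO, 12.1 and 12.5 CPM with UPF1069, 5.75 and 5.10 CPM with olaparib, and 10.7 in each veliparib library. Its fall with olaparib, by 1.14 on the log2 scale (adjusted p = 8.44e-11), left 41.2% of the DMSO level. With veliparib it changed by -0.28 (adjusted p = 0.00943), a call that was lost with DESeq2 (adjusted p = 0.0677), without DMSO replicate 1 (0.111) and after the GC correction (-0.11, adjusted p = 0.335). The remaining activator, E2F3, moved less: it read 38.3 and 38.2 CPM with DMSO, 36.4 and 39.1 with UPF1069, 33.7 and 34.4 with olaparib, and 44.2 and 41.3 with veliparib. It fell by 0.16 with olaparib (adjusted p = 0.0146) and rose by 0.15 with veliparib (adjusted p = 0.0274). The olaparib call was lost without DMSO replicate 1 (adjusted p = 0.0766), DMSO replicate 2 (0.069) or olaparib replicate 1 (0.0945). The veliparib call was lost without DMSO replicate 1 (0.118), DMSO replicate 2 (0.116) or veliparib replicate 1 (0.123), and after the GC correction (0.165).

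The pocket-bound repressors E2F4 and E2F5 shifted by small amounts. E2F4 read 59.7 and 58.6 CPM with DMSO, 53.6 and 54.7 CPM with UPF1069, 48.4 and 47.9 CPM with olaparib, and 49.4 and 49.9 CPM with veliparib. All 6 treated libraries were below the DMSO libraries. The fold change was -0.29 with olaparib (adjusted p = 1.54e-05), -0.25 with veliparib (adjusted p = 0.000183, and -0.04 with an adjusted p of 0.515 after the GC correction) and -0.12 with UPF1069 (adjusted p = 0.0546, and 0.0224 after the GC correction). E2F5 read 13.0 and 12.1 CPM with DMSO, 11.3 and 10.8 with UPF1069, 9.56 and 11.4 with olaparib, and 11.8 and 12.7 with veliparib. It passed with olaparib alone, at -0.25 (adjusted p = 0.0172), and there the call rested on single libraries: the adjusted p was 0.141 without DMSO replicate 1 and 0.285 without olaparib replicate 1, where the fold change was -0.13, and 0.0769 with DESeq2.

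The atypical repressors E2F7 and E2F8 were the members that UPF1069 moved in opposite directions. E2F7 read 18.05 and 16.21 CPM with DMSO, 24.1 and 25.1 CPM with UPF1069, 7.57 and 8.01 CPM with olaparib, and 19.72 and 18.04 CPM with veliparib. It thus rose by 0.50 with UPF1069 (95% interval 0.35 to 0.65, adjusted p = 3.1e-05) and fell by 1.04 with olaparib (adjusted p = 7.11e-11), and the groups did not overlap in either case. E2F8 read 7.92 and 9.18 CPM with DMSO, 5.96 and 6.79 with UPF1069, 3.84 in each olaparib library, and 8.50 and 9.59 with veliparib. Its fold change was -0.98 with olaparib (adjusted p = 1.98e-08) and -0.37 with UPF1069 (adjusted p = 0.00744). The UPF1069 call on E2F8 was lost without DMSO replicate 2 (adjusted p = 0.14), without UPF1069 replicate 1 (0.124) and with DESeq2 (0.0533). With veliparib neither passed, at 0.13 for E2F7 and 0.07 for E2F8 (interval -0.13 to 0.28). E2F7 was at 0.19 without veliparib replicate 2, and whether it passed rested on that library.

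Of the pocket proteins, RBL2 rose with each compound, RBL1 fell with olaparib, and RB1 did not pass in any of the 3 comparisons. RBL2 read 107.7 and 111.1 CPM with DMSO, 124.0 and 124.5 CPM with UPF1069, 127.9 and 127.8 CPM with olaparib, and 126.8 and 120.1 CPM with veliparib. The 6 treated libraries were all above the DMSO libraries. The fold changes against these shared controls were 0.18 (adjusted p = 0.0022), 0.22 (adjusted p = 8.2e-05) and 0.17 (adjusted p = 0.00176, and 0.09 with the GC correction), and the UPF1069 call was lost without DMSO replicate 1 (0.0571). RBL1 read 26.1 in each DMSO library, 26.6 and 26.1 CPM with UPF1069, 18.3 and 19.6 CPM with olaparib, and 32.8 and 29.6 CPM with veliparib. It fell by 0.44 with olaparib (adjusted p = 3.74e-06), to 72.6% of the DMSO level, and rose by 0.24 with veliparib (adjusted p = 0.00366), a call lost after the GC correction (0.13, adjusted p = 0.0863). RB1 read 58.4 and 59.0 CPM with DMSO, 59.1 and 58.9 with UPF1069, 51.6 and 57.1 with olaparib, and 65.4 and 54.2 with veliparib, with a fold change of -0.11 with olaparib (95% interval -0.24 to 0.02). It passed there after the GC correction (-0.16, adjusted p = 0.00266) and in a fit of the groups compared alone (adjusted p = 0.0179). For veliparib it was 0.02 (interval -0.11 to 0.15), and 0.15 without veliparib replicate 2 (adjusted p = 0.00437).

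The 3 compounds were also compared with one another at the same dose and time, as 3 pairs, with the adjustment run over all genes. UPF1069 stood above olaparib in 7 of 10 members and below in none, where 51.2% of all genes differed, 24.2% higher and 27.0% lower. The differences were 1.54 for E2F7, 1.05 for E2F2, 0.89 for E2F1, 0.61 for E2F8 and 0.46 for RBL1, with adjusted p of at most 2.11e-05. E2F4 and E2F3 differed by 0.17 and 0.14, and without UPF1069 replicate 2 their adjusted p were 0.0577 and 0.306. The E2F3 call was lost also without olaparib replicate 1 (0.152) or replicate 2 (0.081). E2F5, RB1 and RBL2 did not pass, with intervals of -0.10 to 0.25, -0.02 to 0.25 and -0.13 to 0.04, and RB1 differed by 0.23 after the GC correction (adjusted p = 0.00012).

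Olaparib stood below veliparib in 7 of 10 members and above in none, where 59.5% of all genes differed, 27.7% lower and 31.7% higher. E2F7 differed by -1.18, E2F8 by -1.05, E2F2 by -0.86, RBL1 by -0.69, E2F1 by -0.48 and E2F3 by -0.32, with adjusted p of at most 2.91e-05. E2F5 differed by -0.21 (adjusted p = 0.0329), a call lost in 7 of 14 alternative settings. Among these were the GC correction (-0.14, adjusted p = 0.16) and DESeq2 (adjusted p = 0.0973). Its difference was -0.10 without olaparib replicate 1 and -0.17 without veliparib replicate 2. E2F4 did not pass (-0.04, interval -0.14 to 0.05), but differed by -0.21 after the GC correction (adjusted p = 6.53e-05). RBL2 differed by 0.05 with an interval of -0.03 to 0.14, and by 0.11 with the GC correction (adjusted p = 0.00308). RB1 differed by -0.13 with an interval of -0.26 to 0.00, and by -0.27 without veliparib replicate 2. It passed with edgeR on the recovered reads (-0.16, adjusted p = 0.0279).

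UPF1069 and veliparib differed in 6 of 10 members, where 50.8% of all genes differed, 25.9% higher and 24.9% lower with UPF1069. E2F1, E2F7 and E2F4 were higher with UPF1069, by 0.41, 0.37 and 0.12, and E2F8, RBL1 and E2F3 were lower, by -0.45, -0.23 and -0.17. After the GC correction E2F1 differed by 0.12 (adjusted p = 0.0125), E2F3 by -0.10 (0.0953), RBL1 by -0.08 (0.263) and E2F4 by -0.082 (0.11), the last with its sign turned. Without UPF1069 replicate 1 the adjusted p was 0.17 for E2F3 and 0.0827 for E2F4, and without UPF1069 replicate 2 it was 0.171 for E2F4. RB1, at -0.01 with an interval of -0.15 to 0.12, passed after the GC correction at 0.16 (adjusted p = 0.00451), without veliparib replicate 1 at 0.12 (0.0315) and without veliparib replicate 2 at -0.15 (0.00567), so its sign rested on which veliparib library was kept. RBL2, at 0.01, was at 0.12 after the GC correction (adjusted p = 0.00407).

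The genes around the members moved with olaparib in the same table. Of 29 measured E2F target genes of the G1/S transition all fell with olaparib, with a median of -0.74. Of 22 G2/M genes bound by DREAM or B-MYB all fell, with a median of -0.82. The median of all genes was 0.00, and 26.8% of them fell and 25.8% rose. CDC45, a subunit of the replicative helicase, fell by 1.06 and RRM2, a subunit of ribonucleotide reductase, by 1.05. MKI67, the proliferation marker, fell by 1.57, and the cytokinetic kinesin KIF20A was at -1.13. Of 11 E2F partners and DREAM subunits 7 fell and 1 rose: MYBL2, which encodes B-MYB, fell by 1.14, FOXM1 by 0.70, the DP partner TFDP1 by 0.42 and the repressor E2F6 by 0.23. On the kinase side upstream of RB, 10 of 16 genes fell and 3 rose, with CDK2 at -0.74, the phosphatase CDC25A at -0.71 and CCND1, which encodes cyclin D1, at -0.13. The markers of luminal epithelium summed to 4381 and 4463 CPM with olaparib and to 5966 and 6077 CPM with DMSO. Of these 10 markers 5 rose and 5 fell with olaparib, so the sum does not describe each marker. VWF fell by 0.84, and the part of these markers in the changes was not tested.

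UPF1069 left most G1/S targets without a call and lowered the G2/M genes. Of 29 G1/S targets 6 fell and 3 rose (median -0.08), whereas 20 of 22 G2/M genes fell and 1 rose (median -0.54). The mitotic kinase PLK1 fell by 1.18 and CDC20, which activates the ubiquitin ligase of anaphase, was at -0.997. CDT1, the replication licensing factor, rose by 0.46 and MCM6, a helicase subunit, fell by 0.30. CDKN1A, which encodes the cyclin-dependent kinase inhibitor p21, rose by 2.26 (adjusted p = 2.78e-22), CDKN2C, which encodes the CDK4 and CDK6 inhibitor p18, fell by 0.64, CCNE1 (cyclin E1) rose by 0.28 and CCNE2 (cyclin E2) fell by 0.26. In this list 2 of 16 rose and 5 fell. MYBL2 and FOXM1 fell by 0.27 and 0.29 among 3 falls and 1 rise in 11 partners and subunits. Of all genes tested 14.0% fell and 10.3% rose with UPF1069.

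With veliparib 7 of 29 G1/S targets fell and 3 rose (median -0.01), and 6 of 22 G2/M genes fell and 4 rose (median 0.02), counts near the background of 23.2% of all genes that fell and 17.2% that rose. CDT1 fell by 0.50, the thymidine kinase TK1 by 0.31 and MYBL2 by 0.44, while the kinetochore genes CENPF and CENPE each rose, by 0.81 and 0.80. On the kinase side 7 of 16 fell and 1 rose, led by CDKN2A at -0.53 and CDKN2D at -0.43, and CDKN1A rose by 0.18. The relation of these fold changes to GC content is given above.

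In the siRNA experiment, siPARP2_B lowered 8 of the 10 members and raised E2F4 and E2F5, which siPARP2_A raised as well. All 10 members were called, where 66.1% of the 12701 genes tested changed, 35.2% down and 30.9% up, and the members' median was -1.26 against -0.03 for all genes. The second siRNA against the same target, siPARP2_A, gave 7 calls of 10, 4 up and 3 down, where 49.4% of all genes changed, 24.5% up and 24.9% down. With siPARP1_A 6 of 10 changed, 5 down and 1 up, where 54.4% of all genes changed, 28.9% down and 25.5% up. With siPARP1_B 5 of 10 changed, 3 down and 2 up, where 40.4% of all genes changed, 23.9% down and 16.4% up. For siPARP1_A and siPARP1_B the share of members called lay near the background, and for siPARP2_A it was 70% against 49.4%. The siPARP2_A calls fell to 4 without siNC replicate 1. All 4 comparisons share the siNC libraries.

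**Figure D2:**
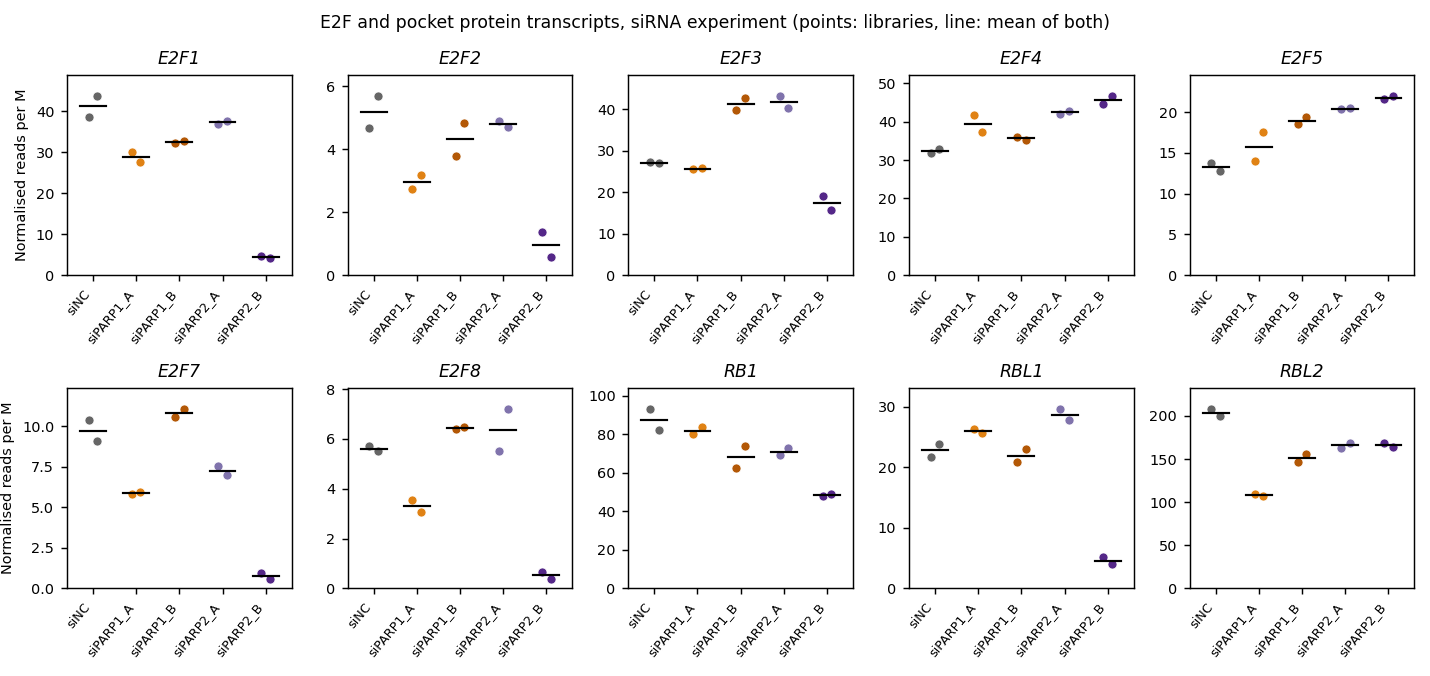
Level of each of the 10 transcripts in the siRNA experiment, in normalised reads per M on a vertical axis that starts at 0; points are libraries and lines the mean of the 2 libraries of siNC and of each siRNA. E2F1, E2F2, E2F7, E2F8 and RBL1 are close to the axis with siPARP2_B, where E2F1 read 4.64 and 4.23.

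E2F1, the most abundant activator, was reduced most by siPARP2_B. It read 38.7 and 43.8 normalised reads per M with siNC, 30.0 and 27.6 with siPARP1_A, 32.3 and 32.7 with siPARP1_B, 37.0 and 37.6 with siPARP2_A, and 4.64 and 4.23 with siPARP2_B. The siPARP2_B values rest on 78 and 75 reads and are a mean 9.30-fold below siNC (log2 fold change -2.96, 95% interval -3.14 to -2.77, adjusted p = 3.06e-19). Both siPARP1 groups lay below siNC without overlap, at -0.50 for siPARP1_A (adjusted p = 4.97e-05) and -0.33 for siPARP1_B (adjusted p = 0.00511, and 0.0914 without siNC replicate 2). For siPARP2_A the change was -0.14, with an interval of -0.32 to 0.05.

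E2F2 read 4.68 and 5.69 with siNC, 2.72 and 3.19 with siPARP1_A, 3.80 and 4.84 with siPARP1_B, 4.89 and 4.69 with siPARP2_A, and 1.37 and 0.564 with siPARP2_B. The last pair rests on 23 and 10 reads and is 5.36-fold below siNC (log2 fold change -1.68, adjusted p = 8.08e-09). With siPARP1_A the change was -0.64 (adjusted p = 0.00357, and 0.0575 without siNC replicate 2). E2F3 rose with some siRNAs and fell with another: it read 27.2 in each siNC library, 25.5 and 25.9 with siPARP1_A, 39.9 and 42.8 with siPARP1_B, 43.2 and 40.5 with siPARP2_A, and 19.2 and 15.7 with siPARP2_B. It rose by 0.59 with siPARP1_B (adjusted p = 1.09e-05) and by 0.60 with siPARP2_A (adjusted p = 4.64e-06), and it fell by 0.62 with siPARP2_B (adjusted p = 1.42e-06). With siPARP1_A it was at -0.08, with an interval of -0.26 to 0.11.

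E2F4 and E2F5 were the members that siPARP2_B did not lower. E2F4 read 31.9 and 32.8 normalised reads per M with siNC, 41.7 and 37.3 with siPARP1_A, 35.9 and 35.4 with siPARP1_B, 42.1 and 42.9 with siPARP2_A, and 44.7 and 46.7 with siPARP2_B. All 8 libraries with an siRNA against PARP1 or PARP2 were above both siNC libraries. The fold change was 0.48 with siPARP2_B (adjusted p = 4.63e-06), 0.38 with siPARP2_A (adjusted p = 0.000186), 0.28 with siPARP1_A (adjusted p = 0.00345, and 0.0858 without siPARP1_A replicate 1) and 0.13 with siPARP1_B (adjusted p = 0.166, and 0.0272 with the GC correction). E2F5 read 13.7 and 12.8 with siNC, 14.0 and 17.6 with siPARP1_A, 18.6 and 19.3 with siPARP1_B, 20.4 and 20.5 with siPARP2_A, and 21.6 and 22.0 with siPARP2_B. It rose by 0.68 with siPARP2_B (adjusted p = 3.09e-06), 0.59 with siPARP2_A (adjusted p = 4.25e-05) and 0.49 with siPARP1_B (adjusted p = 0.000544). With siPARP1_A the value was 0.23 (adjusted p = 0.0665), which passed without siPARP1_A replicate 1 (0.38, adjusted p = 0.01) and with the GC correction (0.0226).

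The atypical E2Fs were lowest with siPARP2_B, under 1 read per M. E2F7 read 10.4 and 9.07 normalised reads per M with siNC, 5.80 and 5.92 with siPARP1_A, 10.6 and 11.1 with siPARP1_B, 7.52 and 7.003 with siPARP2_A, and 0.952 and 0.564 with siPARP2_B. The siPARP2_B libraries held 16 and 10 reads of it, a mean 12.8-fold below siNC (log2 fold change -2.62, adjusted p = 1.6e-14). E2F8 read 5.71 and 5.51 with siNC, 3.57 and 3.06 with siPARP1_A, 6.39 and 6.49 with siPARP1_B, 5.50 and 7.19 with siPARP2_A, and 0.654 and 0.394 with siPARP2_B, the last from 11 and 7 reads. Its mean with siPARP2_B was 10.7-fold below siNC; the log2 fold change was -2.12 on the scale used here and -3.39 with DESeq2 on the recovered reads. With siPARP1_A E2F7 fell by 0.64 (adjusted p = 0.000376) and E2F8 by 0.62 (adjusted p = 0.00145), whereas with siPARP1_B they were at 0.14 and 0.17 and did not pass. E2F7 also passed with siPARP2_A, at -0.38 (adjusted p = 0.0277), but not with DESeq2 (0.109), without siNC replicate 1 (0.189) or without either siPARP2_A replicate (0.0562 and 0.141).

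All 3 pocket proteins fell with siPARP2_B, RBL1 by the most. RBL1 read 21.8 and 23.9 normalised reads per M with siNC, 26.4 and 25.7 with siPARP1_A, 20.8 and 23.0 with siPARP1_B, 29.6 and 27.9 with siPARP2_A, and 5.17 and 4.001 with siPARP2_B. The siPARP2_B values, from 87 and 71 reads, were 4.97-fold below siNC (log2 fold change -2.10, adjusted p = 5.96e-15), while siPARP2_A gave 0.32 (adjusted p = 0.0142). That rise was lost without siNC replicate 1 (0.119) or siPARP2_A replicate 1 (0.0984). RB1 read 92.9 and 82.1 with siNC, 79.99 and 83.58 with siPARP1_A, 62.3 and 73.6 with siPARP1_B, 69.4 and 72.6 with siPARP2_A, and 48.1 and 49.0 with siPARP2_B. It fell by 0.83 with siPARP2_B (adjusted p = 5.73e-10), to 55.5% of siNC, by 0.36 with siPARP1_B (adjusted p = 0.000483) and by 0.30 with siPARP2_A (adjusted p = 0.00229, and 0.0627 without siNC replicate 1).

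RBL2, the pocket protein of resting cells, was the member that siPARP1_A lowered most. It read 207.7 and 200.1 normalised reads per M with siNC, 109.7 and 106.8 with siPARP1_A, 146.5 and 156.4 with siPARP1_B, 163.0 and 169.0 with siPARP2_A, and 168.3 and 164.3 with siPARP2_B. All 8 libraries with an siRNA against PARP1 or PARP2 lay below the siNC libraries. The fold changes against these shared controls were -0.91 with siPARP1_A (adjusted p = 1.32e-12), -0.43 with siPARP1_B (adjusted p = 1.72e-06), -0.29 with siPARP2_A (adjusted p = 0.000136) and -0.29 with siPARP2_B (adjusted p = 7.96e-05).

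**Figure D3:**
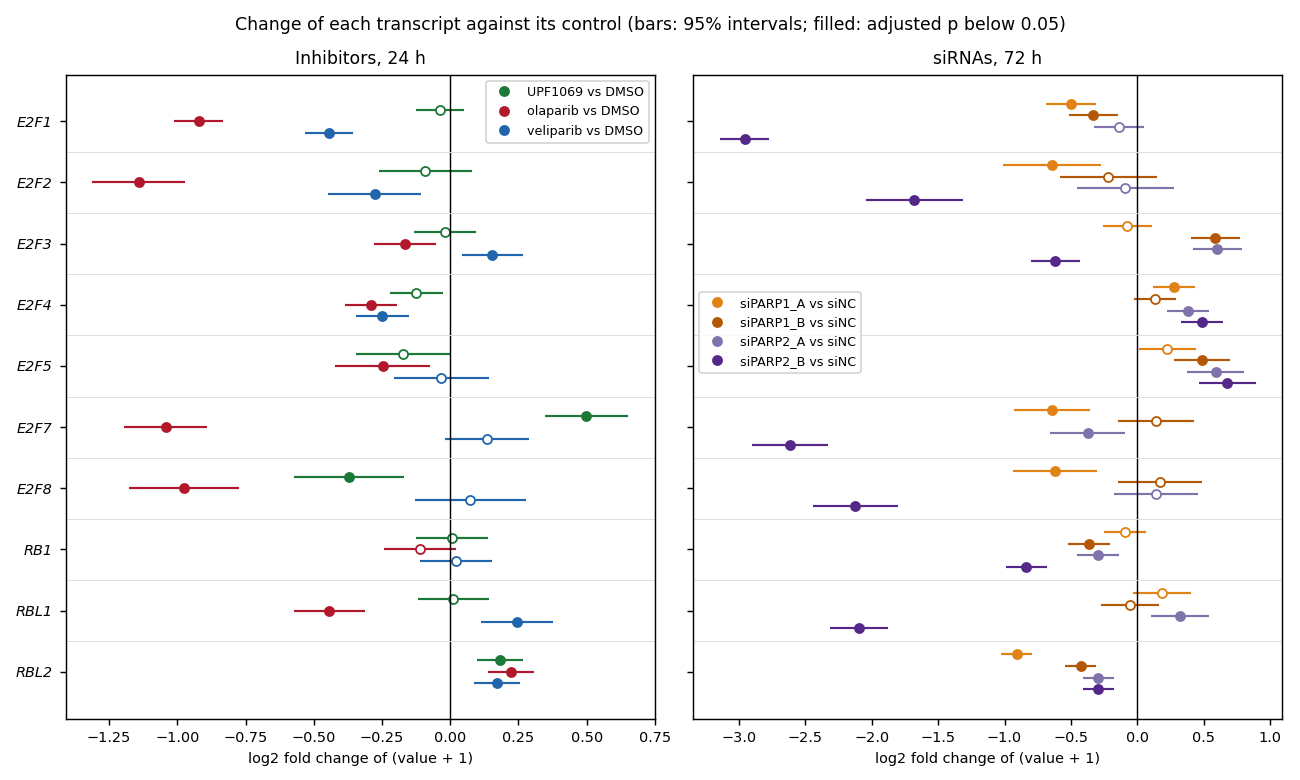
Log2 fold change of (value + 1) of each member against DMSO in the left panel and against siNC in the right panel, with 95% intervals from limma as bars; filled points have an adjusted p below 0.05, and the panels have different horizontal scales. The siPARP2_B points of E2F1, E2F7, E2F8, RBL1 and E2F2 lie between -2.96 and -1.68, and those of E2F4 and E2F5 lie at 0.48 and 0.68.

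The siRNAs against 1 target were set against each other directly. siPARP2_A stood above siPARP2_B in 7 of 10 members and below in none, where 64.8% of all genes differed, 34.3% higher and 30.6% lower. The differences were 2.82 for E2F1, 2.42 for RBL1, 2.26 for E2F8, 2.24 for E2F7, 1.59 for E2F2, 1.22 for E2F3 and 0.54 for RB1, with adjusted p of at most 1e-06. E2F4, E2F5 and RBL2 did not pass, and their intervals were -0.26 to 0.05, -0.30 to 0.13 and -0.12 to 0.12. siPARP1_A stood below siPARP1_B in 6 of 10 members and above in RB1, where 54.8% of all genes differed, 26.5% lower and 28.4% higher. E2F8 differed by -0.79, E2F7 by -0.78, E2F3 by -0.66 and RBL2 by -0.48, with adjusted p of at most 0.000113. The differences of E2F2 (-0.42), E2F5 (-0.26) and RB1 (0.27) were lost when 1 library was left out: without siPARP1_A replicate 1 the adjusted p was 0.224 for E2F2 and 0.5 for E2F5, and without siPARP1_B replicate 1 it was 0.156 for RB1. E2F2 was lost also without siPARP1_A replicate 2 (0.0656) and siPARP1_B replicate 2 (0.305), and E2F5 also without siPARP1_B replicate 1 (0.0753) and replicate 2 (0.154). RBL1 did not pass, at 0.24 (adjusted p = 0.0575), but did after the GC correction (0.0361).

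Taking the mean of each target's siRNAs, the siPARP2 mean lay below the siPARP1 mean in 7 of 10 members and above it in 3, where 65.5% of all genes differed, 32.2% lower and 33.3% higher. E2F7 differed by -1.25, E2F1 by -1.13 and RBL1 by -0.95, and E2F4, E2F5 and RBL2 by 0.23, 0.28 and 0.37. Compared directly, siPARP2_A stood above siPARP2_B in 7 of 10 members and below in none, where 34.3% of all genes were higher and 30.6% lower. The siPARP2 means of those members thus join groups that differ.

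Around the members, siPARP2_B lowered the whole of both target lists. All 29 G1/S targets fell (median -1.45) and all 22 G2/M genes fell (median -2.49). The median of all genes was -0.03, and 35.2% of them fell and 30.9% rose. RRM2 was at -3.84, MCM10, a replication initiation factor, at -3.34, the topoisomerase TOP2A at -3.996 and NUSAP1, a spindle protein, at -3.47. Of 10 partners and DREAM subunits tested 9 fell, with MYBL2 at -3.43 and FOXM1 at -2.47, and E2F6, the repressor, rose by 0.51. On the kinase side 5 of 16 genes rose and 8 fell: CDKN2B, which encodes the CDK4 and CDK6 inhibitor p15, rose by 2.13 and CDKN1A by 1.96, and CCND1 fell by 1.76. Luminal markers summed to 2856 and 2876 normalised reads per M with siPARP2_B and to 7583 and 7905 with siNC, and the 1 endothelial marker measured read 8.23 and 8.51 against 1.56 and 2.24. The part of these markers, or of the lower PARP1 level given above, in the result was not tested.

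With siPARP2_A 9 of 29 G1/S targets rose and 1 fell (median 0.11), and 6 of 22 G2/M genes rose and 4 fell (median 0.10), where 24.5% of all genes rose and 24.9% fell. CDT1 rose by 0.56, the helicase subunit GINS1 by 0.47 and CCNE2 by 0.46, while CDKN1A fell by 0.996, CDKN1C, which encodes p57, by 1.13 and CCND1 by 0.84. Of the kinase-side genes 4 of 16 rose and 8 fell, and of the partners and subunits 3 of 10 rose and 3 fell, with LIN9, a MuvB subunit, at 0.54 and E2F6 at 0.38. Luminal markers summed to 4193 and 4197 normalised reads per M with siPARP2_A, and their part in these changes was not tested.

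The siPARP1 siRNAs moved CDKN1A in opposite directions. With siPARP1_A CDKN1A rose by 1.25 and CDKN2A, which encodes p16, by 1.10, and with siPARP1_B CDKN1A fell by 1.30 and CDKN2A rose by 0.87. The 2 siRNAs differed in CDKN1A by 2.54 (adjusted p = 1.87e-20). With siPARP1_A 23 of 29 G1/S targets fell and 2 rose (median -0.51), led by the origin gene ORC1 at -1.38 and the checkpoint adaptor CLSPN at -1.14, whereas 11 of 22 G2/M genes rose and 1, CCNB2, fell (median 0.29). FOXM1 rose by 1.13, MYBL2 was at -0.08 and did not pass, and CCNE1 and CCNE2 fell by 0.43 and 0.58. With siPARP1_B 8 of 29 G1/S targets fell and 1 rose (median -0.10), and 4 of 22 G2/M genes rose and 2 fell (median 0.07). Among all genes 28.9% fell and 25.5% rose with siPARP1_A, and 23.9% fell and 16.4% rose with siPARP1_B. RBBP4, the histone-binding subunit of MuvB, fell by 0.60 with siPARP1_A and by 1.04 with siPARP1_B, and with siPARP1_B E2F6 fell by 0.44, MYBL2 by 0.44 and CCND1 by 0.86. Luminal markers summed to 4438 and 4456 with siPARP1_A and to 6764 and 6894 with siPARP1_B, VWF was at 0.67 and -0.51 against siNC, and their part was not tested.

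Among the chromatin cofactors that RB recruits, the counts were mixed. Of 9 such genes 5 fell and 1 rose with olaparib (median -0.20), with the methyltransferase SUV39H1 at -0.74 and DNMT1 at -0.53, and 3 fell and 2 rose with siPARP2_B (median -0.23), with DNMT1 at -1.28 and the deacetylase HDAC1 at 0.47. With UPF1069 3 fell, among them SUV39H1 at -0.24, and with veliparib 3 rose and 1 fell, with ARID4A at 0.34. With siPARP1_A 3 fell and 2 rose, with siPARP1_B 3 fell, and with siPARP2_A 2 rose and 1 fell. Among all genes 26.8% fell and 25.8% rose with olaparib, and 35.2% fell and 30.9% rose with siPARP2_B. With UPF1069 14.0% of all genes fell, and with veliparib 17.2% rose and 23.2% fell. The shares were 28.9% down and 25.5% up with siPARP1_A, 23.9% down with siPARP1_B, and 24.5% up and 24.9% down with siPARP2_A. The falls with olaparib and UPF1069 and the rises with veliparib stood furthest above these shares. The list of 9 was not tested as a set, so its counts are read as no result about the list.

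**Figure D4:**
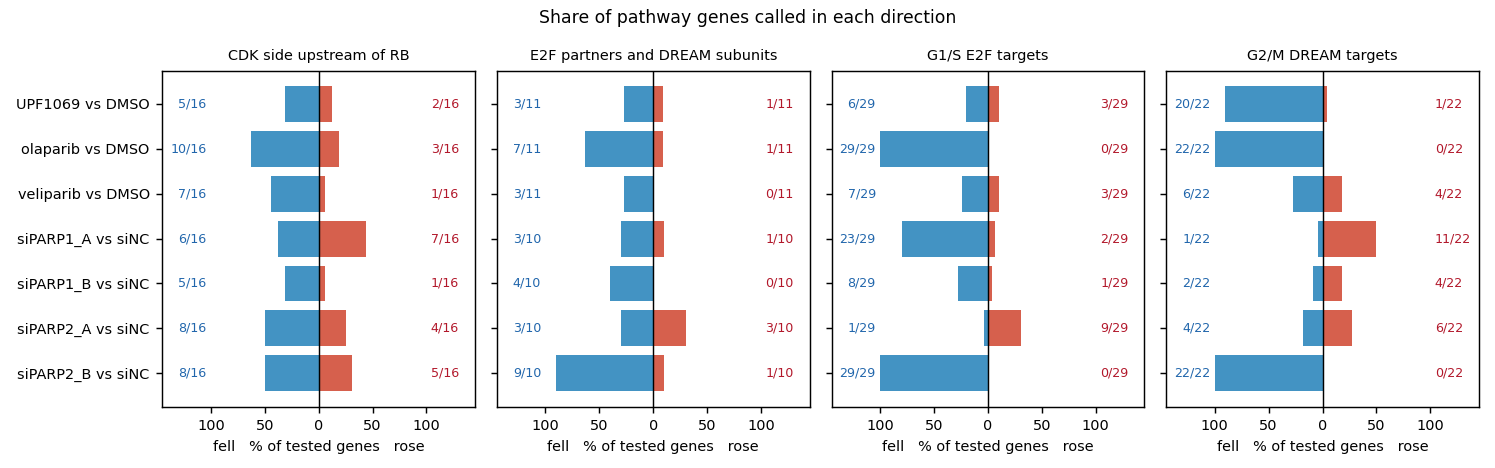
Share of the tested genes of 4 pathway lists that fell (left of the line) or rose (right) in each comparison with a control, in percent; the numbers give the genes called of those tested. All 29 G1/S and all 22 G2/M genes fell with olaparib and with siPARP2_B, and with siPARP1_A 23 of 29 G1/S genes fell while 11 of 22 G2/M genes rose.

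Across libraries the members fell into differing patterns. After subtracting each gene's mean within its table, E2F1 and E2F2 followed each other with Pearson's r of 0.91 over the 18 libraries and 0.93 over the 16 without siPARP2_B, as a description of libraries that share groups, and with no test. E2F1 and RBL1 had an r of 0.95 that dropped to 0.46 without siPARP2_B, and E2F1 and E2F7 had 0.94 and 0.76. E2F3 and E2F5 had 0.07 over all libraries and 0.80 without siPARP2_B, and E2F4 and E2F5 had 0.66 and 0.52. RBL2 was between -0.34 and 0.08 with every other member over all libraries, and without siPARP2_B it was at -0.51 with E2F4, 0.33 with E2F8 and 0.30 with E2F2.

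Among 12109 genes compared, those whose pattern was most like that of E2F1 were ASF1B, a histone chaperone, at r = 0.99 (0.97 without siPARP2_B), RRM2 at 0.99 (0.92) and RNPS1 at 0.99 (0.85). For E2F2 they were the helicase subunits MCM2 at 0.97, GINS3 at 0.96 and GINS2 at 0.96, with 0.96, 0.94 and 0.94 without siPARP2_B. For E2F8 they were NCAPH, a condensin subunit, RAD51AP1 and CCNB2 at 0.98 to 0.99 (0.94 to 0.97 without siPARP2_B). For RBL1 they were DIAPH3, KIF11 and CDK1 at 0.98 to 0.99, and at 0.81 to 0.84 without siPARP2_B. For E2F7 they were DEGS1, GPR158 and SLC35F2, and for E2F3 ARPP19, ADAT1 and CDC23. For E2F4 they were RNF126, NSUN5 and MUTYH, and for E2F5 POT1, SNRPD3 and IMPACT. The r of the genes named for these 4 members was 0.89 to 0.98, and 0.85 to 0.96 without siPARP2_B. For RB1 they were YWHAQ, SMAD5 and GFPT2 at 0.94 to 0.95, and at 0.83 to 0.86 without siPARP2_B. RBL2 was most like RPS6KA5 at 0.97 (0.98 without siPARP2_B) and TRNT1 at 0.97.

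The order of the members' levels per kb changed most with siPARP2_B. RBL2 stayed highest, at 22.7 ± 0.386 normalised reads per M per kb, and E2F4 moved to the second place at 12.8 ± 0.404, ahead of RB1 at 7.52 ± 0.0934 and E2F5 at 3.67 ± 0.0462, whose libraries overlapped with E2F3 at 3.38 ± 0.470. E2F1 was sixth in this order at 1.77 ± 0.117, where it was second with siNC, and RBL1 was seventh at 0.771 ± 0.139. E2F2, E2F8 and E2F7 were at 0.177 ± 0.104, 0.127 ± 0.0444 and 0.120 ± 0.0435 and overlapped with their neighbours. With olaparib E2F1 still led at 21.3 ± 0.574 CPM per kb, followed by RBL2 at 17.5 ± 0.0144 and E2F4 at 13.4 ± 0.0879.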

How the data were processed

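RNA was measured in 18 LNCaP libraries, grouped by their labels. The authors deposited CPM for the inhibitor experiment and a normalised signal for the siRNA experiment. The step between low values showed what 1 read is worth in a library: total reads scaled by factors of 0.991 to 1.01 and of 0.891 to 1.04. Every value in the tables came within 0.01 of a multiple of that step. TopHat2 2.1.0 and HTSeq 0.6.1, bcl2fastq 2.18 and edgeR 3.12.0, with the build hg19, are named in the submitters' processing notes, without roles.

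The main test was the trend method of limma 3.58.1 in R 4.3.3 on log2(value + 1), 2-sided, for 13337 and 12701 genes with a mean of at least 1. All groups of a table entered 1 fit, with 4 and 5 residual and 17.6 and 19.0 prior degrees of freedom, and p-values were adjusted by Benjamini and Hochberg's method across the table. edgeR 4.0.16 and DESeq2 1.42.0, run on the recovered reads, were alternatives. The GC correction subtracts from each library a smooth curve of its deviation on GC content, taken as that of each gene's longest transcript. Exon length is that of the union of a gene's exons. Both came from GENCODE 29, another build than the files'. The method was tested on simulated data. The members, gene lists and the rule for named genes (all members, the 2 largest changes per list that passed, direct regulators, the 3 genes of most similar pattern) were chosen with earlier results of these data known. A gene that the rule would name is not reported here.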

Additional observations from a re-analysis of the deposited data

Results flagged for a closer look

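For 2 members each siRNA against PARP2 gave a change that passed against the same siNC libraries, and these changes had opposite signs. The difference between the siRNAs also passed limma's test. E2F3 was higher with siPARP2_A than with siPARP2_B by 1.22 on the log2 scale (adjusted p = 1.02e-11), at 43.2 and 40.5 against 19.2 and 15.7 normalised reads per M. RBL1, which encodes p107, was higher with siPARP2_A by 2.42 (adjusted p = 3.97e-16), at 29.6 and 27.9 against 5.17 and 4.001 normalised reads per M, although its rise against siNC was lost when siNC replicate 1 was left out (adjusted p = 0.119).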

How the results depend on the processing

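Over 1846 recomputed values of 130 member results, 1716 kept their direction and side of the threshold, 70 lost and 32 gained a call, and 28 turned sign, 5 of them with a call and 23 between values that did not pass. The count of members called with veliparib against DMSO went from 6 to 2 with the GC correction and to 1 with the GC correction and the replicate block. With 1 library left out it ranged from 4 to 8, and the count with siPARP2_A against siNC from 4 to 7. Between UPF1069 and veliparib, E2F4 was at -0.082 with the GC correction, with and without the block, and RB1 at 0.16; without veliparib replicate 1 RB1 was at 0.12 and without replicate 2 at -0.15. Deviations of same-numbered libraries from their group means had correlations of -0.14 to 0.11 between groups. These show no strong shift shared by number, but with 2 libraries per group they cannot exclude a shared batch. The replicate block alone gave 3, 9 and 6 members called for UPF1069, olaparib and veliparib and 6, 5, 7 and 10 for siPARP1_A, siPARP1_B, siPARP2_A and siPARP2_B, the counts without it, and changed no other count. A filter at a mean of 5 dropped E2F2 and E2F8 from the siRNA table, leaving 8 called with siPARP2_B. Values of E2F7 and E2F8 with siPARP2_B rest on at most 16 reads, so their fold depends on the added 1.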
